A study of Rattus norvegicus with 12 samples.

Results

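The regional difference between jejunum and ileum was described in the mucosa of sham-operated rats, in which the bowel had been cut and rejoined without removing any of it. The groups were taken by label: 1 sham jejunal array was set against 3 sham ileal arrays, so that 4 of the 12 arrays of the series are described here. The sham jejunal array and the first sham ileal array share the sample code 33, read as an animal code although the labels do not state this outright. The other sham ileal arrays carry the codes 34 and 35. The remaining 8 arrays came from 4 jejunal and 4 ileal samples of other rats that had lost 75% of the bowel, a model of short bowel syndrome (SBS). All animals were male rats, with the strain spelled Spraque Dawley in the labels. Neither the age of the rats, the interval since surgery nor the exact site of sampling is stated in the sources used here. Total RNA of intestinal mucosa was labelled and hybridized to an Illumina BeadChip, on which beads carry gene-specific probes. The labelling protocol names the RatRef-12 chip, and the treatment text a Rat Quad chip.

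The jejunum is the main site where sugars, fat and most vitamins are absorbed, and its epithelium carries lactase and the machinery for packing fat into chylomicrons. The ileum recovers bile acids through an apical sodium-coupled transporter, a cytosolic carrier and a basolateral transporter pair, and holds the bile acid receptor FXR. Transcription factors of the GATA family help to set jejunal identity, and hormone-producing cells differ along the gut, with GIP cells upstream and peptide YY cells downstream.

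Detection at p under 0.05 was reached by 8095 of 22517 probes on the sham jejunal array, against 8119, 8357 and 8695 on the sham ileal arrays. Median signal intensity was 57.4 on the sham jejunal array and 60.1, 62.1 and 59.4 on the sham ileal arrays. The epithelial genes Epcam and Cdh17 stood at 12.74 and 11.77 on the sham jejunal array as normalized log2 levels, which are used throughout unless a difference is named. On the sham ileal arrays Epcam lay between 12.65 and 12.95 and Cdh17 between 11.72 and 11.91, and the jejunal level lay within each range. Vil1 and Cdh1 stood at 9.86 and 6.42 in sham jejunum, also within the ileal ranges (9.26 to 9.90 for Vil1, 5.97 to 6.84 for Cdh1). Fabp2, the intestinal fatty acid carrier, stood at 14.43 in sham jejunum, above 14.00, 14.00 and 13.77 in sham ileum, and did not pass the test used below (adjusted p = 0.585). The 14.43 of Fabp2 is the top value of the normalized scale, which the bile acid carrier Fabp6 took on the sham ileal arrays. Of the jejunal markers, Lct and Gata4 were higher in sham jejunum, the iron exporter Slc40a1 showed no such order (7.37 in sham jejunum, against 6.31, 8.71 and 6.40 in sham ileum), and Cybrd1 was not among the tested probes. Of the ileal markers, Slc10a2, Fabp6, Slc51a and Slc51b were each below all 3 sham ileal arrays on the sham jejunal array. The jejunal array correlated with the ileal arrays by 0.965, 0.957 and 0.952 across the tested probes, and the ileal arrays with each other by 0.982, 0.982 and 0.989. These are correlations across probes, which are not independent replicates, and the highest of the jejunal ones is with the ileal array of the same sample code.

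With 1 array in a group, an exact permutation test over the 4 sham arrays cannot give a one-sided p below 0.25, or 0.5 when doubled for 2 sides. The comparison therefore used a model over all 12 arrays (limma), in which the spread of the single sham jejunal array is taken to equal that within the other groups. No probe has a replicate check in sham jejunum. Of 9137 probes tested, 57 (0.624%) passed an adjusted p of 0.05, 36 of them higher (0.394%) and 21 lower (0.23%) in sham jejunum, and 820 had an unadjusted p under 0.05. All 57 lay outside the range of the ileal arrays, as did many tested probes in all (31.9% above and 34.2% below every ileal array). All 57 thus also had the same sign between the 2 arrays of code 33. This adds nothing, since the ileal array of code 33 is part of that range. Of the 57, 55 differed by more than 2-fold, and 44 were named genes. The count depended on the model. With animal as a fixed block, which takes the sham difference from the 2 arrays of code 33 alone, it was 57. Of these, 32 were among the 57 above. The count was 154 with animal as a random block and 158 from the 4 sham arrays alone. When sham ileum 2 or 3 was left out it was 28 or 27, and when SBS jejunum 1 or 4 was left out, 88 or 100. Of 41 called genes described below, all kept their direction under each of 21 alternatives. Most of these could not turn it. Leaving out an SBS array or using the sham arrays alone does not change the difference. A jejunal level outside the ileal range also keeps its side whichever sham ileal array is left out, and with animal as a fixed block. Of the 41, 16 also kept adjusted p under 0.05 under each alternative: Fam151a, Asah2, Aadac, Lct, Gip, Il36b, Maob, Amacr, Cdip1, Gata4 and Slit1 among the higher ones, and Suox, Napsa, Mpst, Slc13a1 and Slc10a2 among the lower ones. Without sham ileum 1, 2 or 3 the number of the 41 that kept their call was 32, 21 and 21, and without any 1 SBS array it was 31 to 41. G6pc1, Cd36, Ugt2b37, Rdh7, Qprt, Phyh, Fdft1, Lpcat4 and Fut1 lost it without any 1 of the 3 sham ileal arrays. Tst, Scnn1a, Inpp5j, Npy, Anxa4, Arg2, Larp1b, Agmat, Ilvbl and Bco2 lost it without sham ileum 2 and without sham ileum 3, Nr1h4 without sham ileum 2 and Casp6 without sham ileum 3.

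**Figure D1:**
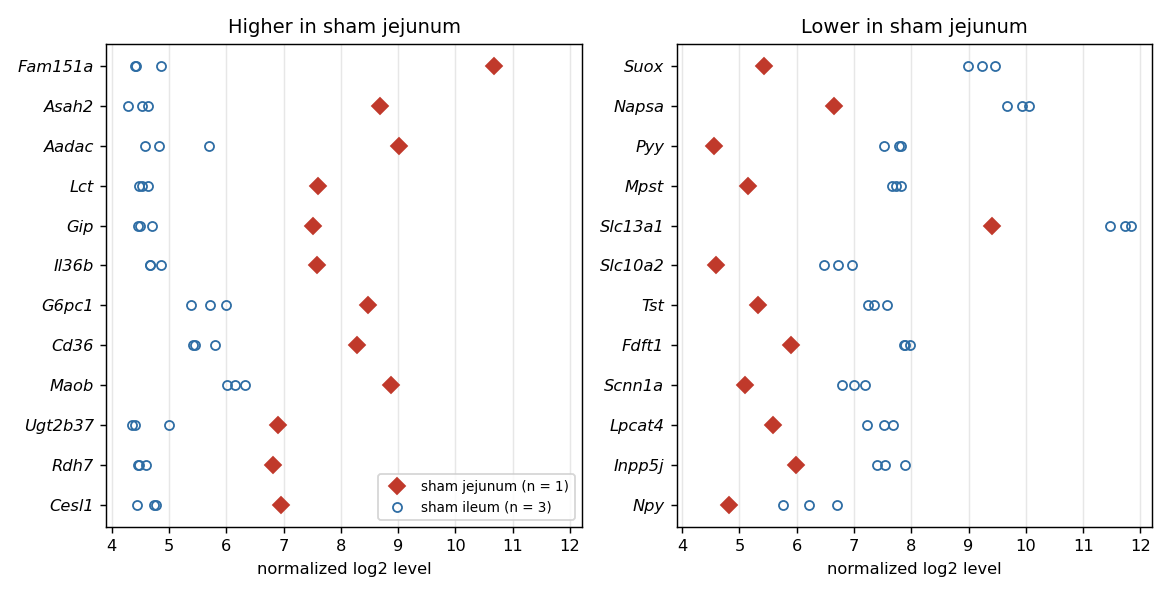
Normalized log2 levels of the 12 genes with the largest called differences in each direction, on the sham jejunal array (red diamonds, n = 1) and on the 3 sham ileal arrays (open blue circles). Fam151a has the widest gap, 10.67 against 4.40 to 4.86, and no jejunal value lies within the ileal range.

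The hormone Gip, released by K cells after a meal, and the transcription factor Gata4 were both higher in sham jejunum, and the hormone Pyy, released by L cells, was lower. Gip stood at 7.52 on the sham jejunal array, against 4.50, 4.70 and 4.45 on the sham ileal arrays, where it was detected on 1 of 3. The difference was 2.96 ± 0.22 (SE) on the log2 scale, 7.81-fold (adjusted p = 6.61e-05). Gata4 stood at 6.54 on the sham jejunal array, against 4.36, 4.40 and 4.31 on the sham ileal arrays, none of which detected it, so that it was at least 3.61-fold higher (adjusted p = 0.000979). Its relatives Gata5 and Gata6, chosen after their values were seen, had log2 differences of 0.23 and 0.20, far from the threshold (adjusted p = 0.868 and 0.901). Pyy was not detected in sham jejunum (4.56) and stood at 7.52, 7.82 and 7.78 on the sham ileal arrays, at least 7.91-fold lower in sham jejunum (adjusted p = 0.00602, and 0.0506 with animal as a fixed block). Here and below, fewer cells of a type and less RNA per cell cannot be told apart.

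Apart from Gip and Pyy, the other 11 of 13 measured hormone and granin genes did not pass the test, and the median of the 13 was 0.04, beside -0.02 over all 6704 tested genes. Gcg, the proglucagon gene of L cells, stood at 8.69 in sham jejunum, against 8.64, 8.36 and 8.49 in sham ileum, a difference of 0.19 ± 0.24 (SE). Secretin (Sct) stood at 5.79 in sham jejunum and at 6.74, 6.73 and 6.45 in sham ileum (adjusted p = 0.544). Npy, a peptide of the same family as Pyy and a neuronal transmitter, stood at 4.82 in sham jejunum, against 5.76, 6.21 and 6.70 in sham ileum, and passed the test (log2 difference -1.40 ± 0.27 (SE), adjusted p = 0.0428, and 0.151 with animal as a fixed block). Npy was detected on the 4 sham arrays and on no SBS array. Its SD was 0.06 in SBS jejunum and 0.08 in SBS ileum, against 0.47 in sham ileum. The SE of Npy thus draws largely on arrays at background, and its call was lost in the sham arrays alone. Gip and Pyy held the far ends of the hormone and granin list, and the jejunal level of Gcg lay barely above the highest ileal one. Among 14 measured regional and enterocyte transcription factors Gata4 alone was called. Hoxb7, a homeobox factor of posterior body regions, was not detected in sham jejunum (4.57) and stood at 6.03, 9.20 and 9.28 in sham ileum. Sham jejunum was at least 10.9-fold below the mean of the 3 ileal arrays (adjusted p = 0.174). The ileal array of code 33 was the lowest, and within code 33 the log2 difference was only -1.46.

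The 250 bases before the start of Gip, Lct, Slc10a2 and Pyy are shown because these genes mark the 2 ends of the regional contrast and Gata4 was called in it. They were taken from RefSeq (build GRCr8), read 5′ to 3′ along each gene's strand, at chr10:81464820-81465069 (plus strand), chr13:42376873-42377122 (minus strand), chr16:91087839-91088088 (plus strand) and chr10:87562471-87562720 (minus strand). Capitals mark the GATA motif searched, AGATAA or TGATAA, on either strand.
Gip: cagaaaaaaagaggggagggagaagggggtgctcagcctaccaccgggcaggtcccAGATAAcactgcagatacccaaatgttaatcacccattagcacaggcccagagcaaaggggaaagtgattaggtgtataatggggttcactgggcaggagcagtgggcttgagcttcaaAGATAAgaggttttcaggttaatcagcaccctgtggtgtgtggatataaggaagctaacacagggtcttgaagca
Lct: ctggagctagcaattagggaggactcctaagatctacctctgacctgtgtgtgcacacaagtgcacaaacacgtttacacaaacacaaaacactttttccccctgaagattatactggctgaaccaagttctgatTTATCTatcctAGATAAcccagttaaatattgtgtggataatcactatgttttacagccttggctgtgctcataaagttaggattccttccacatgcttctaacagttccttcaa
Slc10a2: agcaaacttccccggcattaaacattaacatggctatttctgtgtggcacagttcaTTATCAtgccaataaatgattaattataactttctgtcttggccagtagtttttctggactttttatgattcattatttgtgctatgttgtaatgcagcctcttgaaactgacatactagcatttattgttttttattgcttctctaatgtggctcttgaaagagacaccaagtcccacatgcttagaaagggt
Pyy: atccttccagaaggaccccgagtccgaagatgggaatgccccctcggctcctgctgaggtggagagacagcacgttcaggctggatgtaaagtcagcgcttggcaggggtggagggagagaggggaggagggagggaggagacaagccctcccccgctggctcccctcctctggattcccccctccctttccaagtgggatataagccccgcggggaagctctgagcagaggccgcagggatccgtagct
Gip held 2 matches, whose first bases lie 194 and 75 bases before the start, and Lct held 2, at 115 and 104 bases. Slc10a2 held 1, at 194 bases, and Pyy held none. The motif was found in 6 of 27 such windows of genes called higher in sham jejunum (22.2%), in 2 of 7 of those called lower (28.6%), in 9.94% of 5632 windows of tested genes and in 16.6% of 27457 windows in all. A match is a description of letters, not a site, and no match in this window says nothing of a factor.

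All 9 measured sugar transport and digestion genes had positive differences and lay above all 3 sham ileal arrays, with a median log2 difference of 1.95, and 2 passed the test. Among all 6704 tested genes 3148 had positive and 3556 negative differences, and 27 were called higher and 14 lower. Of the same 6704 genes, 2125 lay above and 2353 below all 3 sham ileal arrays. Lct, the lactase of the brush border, stood at 7.61 in sham jejunum, against 4.63, 4.48 and 4.53 in sham ileum, where no array detected it, and was at least 7.58-fold higher (adjusted p = 0.00633). G6pc1, the glucose-6-phosphatase that releases free glucose, stood at 8.47 in sham jejunum, against 5.39, 6.00 and 5.71 in sham ileum (6.82-fold, adjusted p = 0.0353). The gene lost its call without any 1 of the sham ileal arrays, with adjusted p up to 0.129 over all alternatives. The apical sodium-glucose cotransporter Slc5a1 stood at 7.17 in sham jejunum, against 5.66, 4.92 and 5.06 in sham ileum, and its relative Slc5a4 at 8.13, against 5.12, 4.66 and 4.76. Both lay above the ileal range without passing the test (adjusted p = 0.124 and 0.0596).

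Of 18 measured genes of fat uptake and chylomicron assembly 17 had positive differences (3148 of 6704 over all tested genes) and 15 lay above all 3 sham ileal arrays, with a median log2 difference of 0.88, and 1 passed the test. This was Cd36, a membrane carrier for long-chain fatty acids, at 8.29 in sham jejunum, against 5.43, 5.45 and 5.81 in sham ileum (6.61-fold, adjusted p = 0.0353, and 0.0682 with animal as a fixed block). Its call was also lost without any 1 of the sham ileal arrays, with adjusted p up to 0.134 over all alternatives. Creb3l3, a transcription factor of lipid metabolism, stood at 10.62 in sham jejunum, against 8.56, 7.43 and 7.11 in sham ileum (adjusted p = 0.068). Sar1b, the small GTPase of chylomicron export, stood at 10.12 in sham jejunum, against 9.27, 8.89 and 8.80 in sham ileum (adjusted p = 0.247). The jejunal levels of both were the highest of the 4 without passing the test. Among 7 sterol transport genes none passed; Abcg5, a subunit of the sterol efflux pump, differed by 1.63 on the log2 scale (adjusted p = 0.0648).

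The widest gap among named genes was that of Fam151a, at 10.67 in sham jejunum, against 4.86, 4.43 and 4.40 in sham ileum, a log2 difference of 6.11 ± 0.35 (SE; adjusted p = 8.58e-06). Asah2, the neutral ceramidase that digests sphingolipids at the brush border, stood at 8.68 in sham jejunum, against 4.53, 4.63 and 4.29 in sham ileum, where it was not detected, and was at least 15.9-fold higher (adjusted p = 0.00741). Aadac, an esterase of the endoplasmic reticulum, stood at 9.02 in sham jejunum, against 4.82, 5.70 and 4.58 in sham ileum (15.8-fold, adjusted p = 0.00108). These 3 genes were strongly expressed in sham jejunum and at or near background in sham ileum. Fam151a was detected on only 5 arrays of the series. Its mean level was 4.86 in SBS jejunum, 4.55 in SBS ileum and 4.56 in sham ileum, with SDs of 0.44, 0.24 and 0.26. The SE of Fam151a thus draws on arrays near background and does not measure the spread at the level of the sham jejunal array. The same limit applies to Slit1 and Tlcd4, described below, which were detected on 4 and 3 arrays. Maob, a mitochondrial monoamine oxidase, stood at 8.88 in sham jejunum, against 6.15, 6.01 and 6.33 in sham ileum (adjusted p = 0.00704). Il36b, a cytokine of the interleukin-1 family, stood at 7.58 in sham jejunum, against 4.86, 4.67 and 4.67 in sham ileum (adjusted p = 0.00633). Slit1, known as an axon guidance ligand, was detected in sham jejunum and on no sham ileal array (6.27, against 4.33, 4.34 and 4.41) and was at least 2.99-fold higher (adjusted p = 0.000979).

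Amacr, Phyh and Ilvbl, which act on branched or hydroxylated fatty acids, had log2 differences of 2.12, 1.70 and 1.60 (adjusted p = 0.00602, 0.0353 and 0.0221). They were put side by side after their values were seen and were not tested as a set. Amacr stood at 9.30 in sham jejunum, against 7.28, 7.08 and 7.18 in sham ileum. With animal as a fixed block Amacr kept its call, and Phyh and Ilvbl had adjusted p of 0.0903 and 0.149. Of 12 retinoid genes, Rdh7, a retinol dehydrogenase, passed (6.82 in sham jejunum, against 4.59, 4.48 and 4.45 in sham ileum, at least 4.40-fold, adjusted p = 0.0429, and 0.0506 with the fixed block). Rbp2, the intestinal retinol carrier, differed by 2.40 on the log2 scale without passing (adjusted p = 0.0792), and Bco1, which cleaves beta-carotene into retinal, by 2.14 (adjusted p = 0.213). Bco2, a second carotenoid oxygenase that is not on the list, was at least 2.09-fold higher (adjusted p = 0.0221, and 0.0774 with the fixed block). The median of the 12 retinoid genes was 0.26.

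Arg2, the mitochondrial arginase, differed by 1.40 on the log2 scale and Agmat, an agmatinase, by 1.35, and both passed the test (adjusted p = 0.0353 and 0.0208). Both lost their call with animal as a fixed block (adjusted p = 0.186 and 0.144). Qprt, an enzyme of NAD synthesis from tryptophan, differed by 2.04 (adjusted p = 0.036). The conjugating enzyme Ugt2b37 and the carboxylesterase Cesl1 differed by 2.32 and 2.30 (adjusted p = 0.0367 and 0.00602), neither on the list of 41 cytochrome P450 and conjugation genes. No gene of that list passed. Of the 41, 34 had positive differences (3148 of 6704 over all tested genes) and 29 lay above all ileal arrays (2125 of 6704). The median of the list was 0.65 (0.44 under median scaling and 0.48 within code 33). Cyp3a18 differed by 2.29 (adjusted p = 0.101) and Ces2c by 1.49 (adjusted p = 0.178). The remaining called genes were Cdip1 (2.27), Casp6, an executioner caspase (1.55), Larp1b (1.47), Tlcd4, which was not detected in sham ileum and was at least 2.32-fold higher, and Anxa4, a calcium-dependent membrane-binding protein, which had the smallest called difference of a named gene (0.93, 13.21 in sham jejunum, against 12.43, 12.18 and 12.24 in sham ileum). With animal as a fixed block Larp1b, Tlcd4 and Anxa4 had adjusted p of 0.0678, 0.103 and 0.277. Akr1c12, Gpr89b and Aprt were called higher on a dimmer probe while another probe of each differed by at most 0.56, so that their probes disagree.

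**Figure D2:**
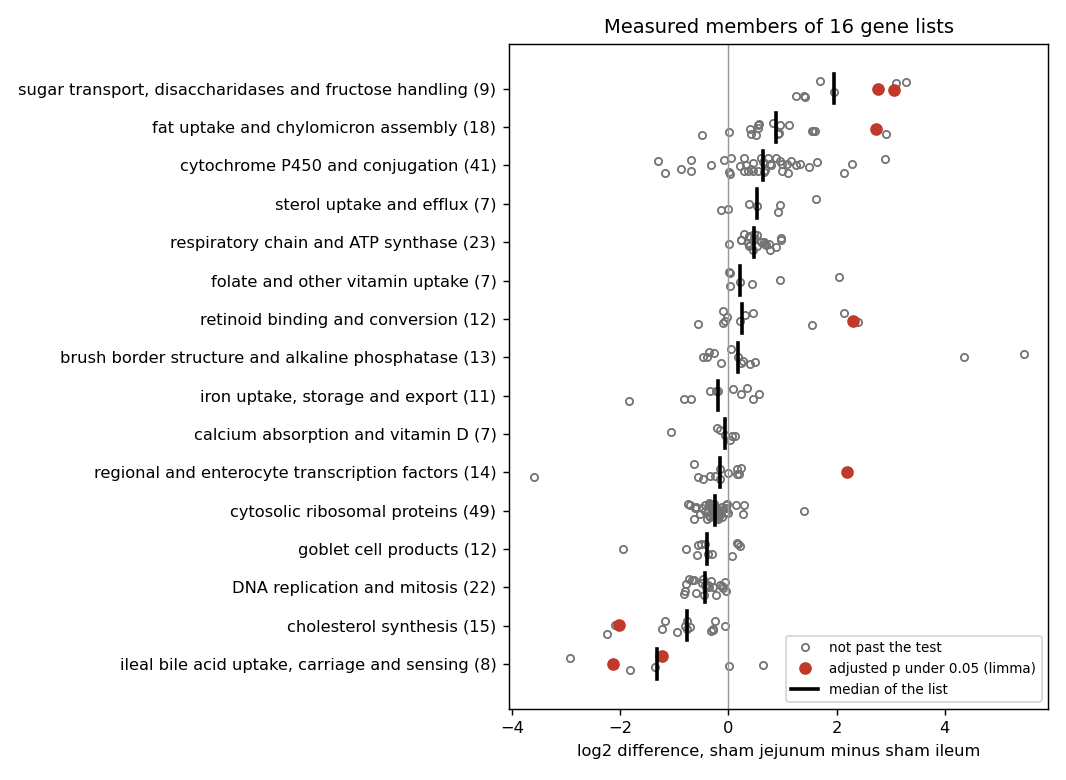
Log2 difference of sham jejunum minus sham ileum for each measured member of 16 gene lists, with the number of members in brackets; red points passed the limma test and black bars are medians. Sugar genes lie wholly to the right (median 1.95), cholesterol synthesis genes wholly to the left (median -0.76) and bile acid genes have the lowest median (-1.32).

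Of 8 measured genes of bile acid handling 6 had negative differences and lay below all 3 sham ileal arrays, with a median log2 difference of -1.32. Over all 6704 tested genes 3556 had negative differences and 2353 lay below all 3. Of the 8 bile acid genes, 2 passed the test, both lower in sham jejunum (14 of 6704 over all tested genes). Slc10a2, the apical bile acid transporter, was not detected in sham jejunum (4.59) and stood at 6.96, 6.72 and 6.47 in sham ileum, at least 3.98-fold lower in sham jejunum (adjusted p = 0.00352). Nr1h4, the bile acid receptor FXR, stood at 5.41 in sham jejunum, against 6.86, 6.59 and 6.47 in sham ileum (log2 difference -1.23 ± 0.20 (SE), adjusted p = 0.0194). The call of Nr1h4 was lost without sham ileum 2 and in the sham arrays alone (adjusted p = 0.0539). Slc51a and Slc51b, the 2 chains of the basolateral bile acid transporter, stood at 10.79 and 8.04 in sham jejunum. In sham ileum Slc51a lay between 11.99 and 12.14 and Slc51b between 9.47 and 10.25, and neither gene passed (adjusted p = 0.152 and 0.0585, and for Slc51b 0.0125 with animal as a fixed block).

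Fabp6, the cytosolic ileal bile acid carrier, had a signal of 2836 in sham jejunum, against 27369, 25685 and 25328 in sham ileum, before normalization. Its normalized log2 levels were 11.50 in sham jejunum and 14.43 on each of the 3 sham ileal arrays, where it was the brightest probe and took the top value of the scale. The difference of -2.93 ± 2.12 (SE) did not pass (adjusted p = 0.779). The SE reflects the SBS jejunal arrays, on which Fabp6 had an SD of 3.61 (n = 4): without SBS jejunum 4 the adjusted p was 0.00202, and in the sham arrays alone 0.00314. Abcc3, a basolateral export pump, stood at 6.11 in sham jejunum, against 7.47, 7.75 and 7.20 in sham ileum (adjusted p = 0.177). The nuclear receptor Nr1i2 differed by 0.64, and Nr0b2, a target of FXR, by 0.01, with a sign that turned under both other scalings. Fgf19 (the current rat symbol of Fgf15), the hormone that ileal FXR induces, was not detected on any sham array and was not tested.

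Sulfur metabolism and sulfate transport were represented by 4 of the lower genes. Suox, the sulfite oxidase, stood at 5.43 in sham jejunum, against 9.46, 9.23 and 8.99 in sham ileum, a log2 difference of -3.80 ± 0.44 (SE; adjusted p = 0.00182). The mitochondrial sulfurtransferases Mpst and Tst, which act on cysteine-derived sulfur, differed by -2.58 and -2.07 (adjusted p = 0.00532 and 0.0223, and for Tst 0.0737 with the fixed block). Slc13a1, the sodium-sulfate cotransporter, was abundant in both regions, at 9.41 in sham jejunum, against 11.83, 11.73 and 11.48 in sham ileum (adjusted p = 0.000979). Each of these genes lay below the whole ileal range. Mocs2, a subunit of the synthase that makes the molybdenum cofactor of sulfite oxidase, went the other way, at 10.36 in sham jejunum, against 8.83, 8.76 and 8.64 in sham ileum (adjusted p = 0.00287, and 0.0506 with the fixed block). This grouping was made after the values were seen and was not tested as a set.

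All 15 measured enzymes of cholesterol synthesis had negative differences (3556 of 6704 over all tested genes). Of the 15, 14 lay below every sham ileal array (2353 of 6704 over all tested genes). The median log2 difference of the 15 was -0.76. The test was passed by 1 of them, lower in sham jejunum (14 of 6704 over all tested genes). Fdft1, the squalene synthase, stood at 5.90 in sham jejunum, against 7.87, 7.98 and 7.89 in sham ileum (log2 difference -2.01 ± 0.36 (SE), adjusted p = 0.0281, and 0.13 with animal as a fixed block). Sqle, the next enzyme, stood at 5.62 in sham jejunum, against 8.12, 8.05 and 7.44 in sham ileum (adjusted p = 0.0648), and Dhcr7, the last step to cholesterol, differed by -0.76 (adjusted p = 0.0959).

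Scnn1a, the alpha subunit of the epithelial sodium channel, stood at 5.10 in sham jejunum, against 6.78, 7.19 and 7.00 in sham ileum (adjusted p = 0.019, and 0.12 with the fixed block). It was the only one called of 21 measured salt and water genes, whose median was 0.28. The carbonic anhydrase Car2 lay at the other end of that list, at 10.25 in sham jejunum, against 5.48, 6.98 and 5.47 in sham ileum, without passing (adjusted p = 0.0648). Napsa, an aspartic protease, stood at 6.66 in sham jejunum, against 9.66, 10.06 and 9.93 in sham ileum (9.37-fold lower, adjusted p = 0.00221). Fut1, a fucosyltransferase, differed by -1.24, the phospholipid enzyme Lpcat4 by -1.89 and the inositol phosphatase Inpp5j by -1.63 (adjusted p = 0.0353, 0.045 and 0.0212). Fut1 and Lpcat4 lost their call without any 1 of the sham ileal arrays, with adjusted p up to 0.081 and 0.163 over all alternatives, and Inpp5j without sham ileum 2, without sham ileum 3 and with the fixed block (adjusted p = 0.126). Another 7 lower and 6 higher probes that were called carry no gene name here.

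Some of the widest gaps came with a wide spread and did not pass. Enpp3, an ectoenzyme of nucleotide breakdown, stood at 11.08 in sham jejunum, against 4.54, 7.52 and 4.78 in sham ileum, and Alpi, the intestinal alkaline phosphatase, at 10.83, against 4.81, 8.87 and 5.76. Sham ileum 2 was the highest ileal array for both (adjusted p = 0.115 and 0.406). They belong to a list of 13 brush border genes whose median was 0.18 and of which none passed; 1 of its members, Usp7, is a ubiquitin protease. Duox2, a hydrogen peroxide-producing oxidase of the epithelial surface, stood at 5.86 in sham jejunum, against 9.77, 10.70 and 9.62 in sham ileum (log2 difference -4.17 ± 0.84 (SE), adjusted p = 0.0529). Of 13 Paneth cell and antimicrobial genes, Duox2 among them, none passed, and their median was -0.33.

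Iron, calcium and vitamin B12 genes gave few calls. None of 11 iron genes passed (median -0.19). Slc11a2, the apical iron importer DMT1, stood at 6.64 in sham jejunum, against 8.52, 8.57 and 8.32 in sham ileum, just outside the threshold (adjusted p = 0.0529). The ferritin chains Ftl1 and Fth1 differed by -0.81 and 0.46, and the iron oxidase Heph by -0.68. Fth1 lay near the top of the scale, and its difference ranged from 0.05 to 0.47 over the alternatives. Its signals before normalization were 14024.5 in sham jejunum, against 11890.5, 13240.9 and 11973.7 in sham ileum. None of 7 calcium genes passed (median -0.06), and S100g, the cytosolic calcium carrier calbindin-D9k, stood just below the lowest ileal array (6.63 in sham jejunum, against 6.69, 9.19 and 7.20 in sham ileum, adjusted p = 0.832). Cubn, the receptor for vitamin B12 bound to intrinsic factor, stood at 9.66 in sham jejunum, against 6.45, 6.70 and 5.36 in sham ileum (log2 difference 3.48 ± 0.73 (SE), adjusted p = 0.0596, and 0.043 with animal as a fixed block). Its membrane partner Amn stood at 10.92 in sham jejunum, against 10.62, 10.49 and 10.30 in sham ileum (adjusted p = 0.898). Plb1, the brush border phospholipase B, stood at 12.26 in sham jejunum, against 10.61, 10.20 and 10.14 in sham ileum (adjusted p = 0.0848). Of the 7 measured genes on that list 1 passed, Fam151a, which had been placed there from earlier results of these data.

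Peptide and vitamin uptake gave no call. For comparison, 3148 of all 6704 tested genes had positive differences. Of 14 peptidases 9 had positive differences (median 0.25); angiotensin-converting enzyme (Ace) differed by 2.76 and the leucine aminopeptidase Lap3 by 2.17 (adjusted p = 0.134 and 0.0914). Of 13 amino acid and peptide transporters 9 were positive (median 0.38), from the glutamate transporter Slc1a1 at -1.09 to values such as 1.25 for Slc3a2, the heavy chain of several amino acid exchangers. Slc46a1, the proton-coupled folate transporter, was not detected in sham ileum and stood at 6.50 in sham jejunum, against 4.35, 4.69 and 4.36 in sham ileum, a fold of at least 3.53 that did not pass (adjusted p = 0.168).

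Large gene groups of general cell function differed by small amounts, with no member past the test. For comparison, of all 6704 tested genes 3148 had positive and 3556 negative differences, and 2125 lay above and 2353 below every ileal array. All 23 respiratory chain and ATP synthase genes had positive differences and 21 lay above every ileal array (median 0.47, and 0.41 within code 33); Ndufs1 and Sdhc differed by 0.97 and 0.70 (adjusted p = 0.175 and 0.182). All 22 DNA replication and mitosis genes had negative differences (median -0.42, and -0.23 within code 33), with Mcm3 at -0.74. Of 49 cytosolic ribosomal protein genes 44 were negative (median -0.25), but the median was -0.04 within code 33. Under median scaling the median of all probes moved by -0.12, to -0.14, and the 3 group medians were then 0.43, -0.55 and -0.30. The signs of these medians held under each of the 21 alternatives. Leaving out an SBS array or using the sham arrays alone cannot change such a median.

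Markers of other cells were compared because mucosal samples can hold follicles, blood and neighbouring tissue. No member passed on the lists of B and plasma cells (9 genes), follicle stroma (14), T and NK cells (20), MHC class II (13), smooth muscle (4), mesenteric fat (6), skeletal muscle (4), red blood cells (4) or exocrine pancreas (7). Normalized levels were taken back from the log2 scale and summed over each list. Those of the red blood cell list summed to 1615 in sham jejunum, against 588 to 1583 in sham ileum. Those of the fat list summed to 330.5 in sham jejunum, against 219.9 to 252 in sham ileum. The pancreas list summed to 731 in sham jejunum, against 357 to 1614 in sham ileum, and the smooth muscle list to 279 in sham jejunum, against 300 to 354 in sham ileum. The T and NK cell list summed to 2993 in sham jejunum, against 3481 to 4321 in sham ileum. For MHC class II the sums were 18411 in sham jejunum, against 22390 to 25115 in sham ileum. The B and plasma cell list summed to 1554, against 1568 to 1899, and the follicle stroma list to 1516, against 1334 to 3162. The part of these cells and tissues in the results was not tested.

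The follicle lists split the sham ileal arrays. Ms4a1, the B cell antigen CD20, stood at 5.98 in sham jejunum, against 5.91 in sham ileum 1 of the same code and 7.25 and 6.93 in the other ileal arrays. Clu, a secreted chaperone abundant in follicular dendritic cells, stood at 6.97 in sham jejunum, against 6.94, 8.23 and 8.02 in sham ileum. The T zone chemokine Ccl19 stood at 4.96 in sham jejunum, against 5.13, 7.06 and 6.73 in sham ileum, and passed the test only without sham ileum 1 (adjusted p = 0.00143, and 0.401 with it). Both arrays of code 33 were thus low for these genes and the other ileal arrays high. The median difference of the 14 follicle stroma genes was -0.53 against the 3 ileal arrays and 0.16 within code 33, and that of the 9 B and plasma cell genes -0.39 and 0.14, so the direction turned with the choice of ileal arrays. Mzb1, a plasma cell gene, kept its direction: it was not detected in sham jejunum (4.59) and stood at 6.10, 5.62 and 5.67 in sham ileum (adjusted p = 0.216, and 0.0284 with animal as a fixed block).

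**Figure D3:**
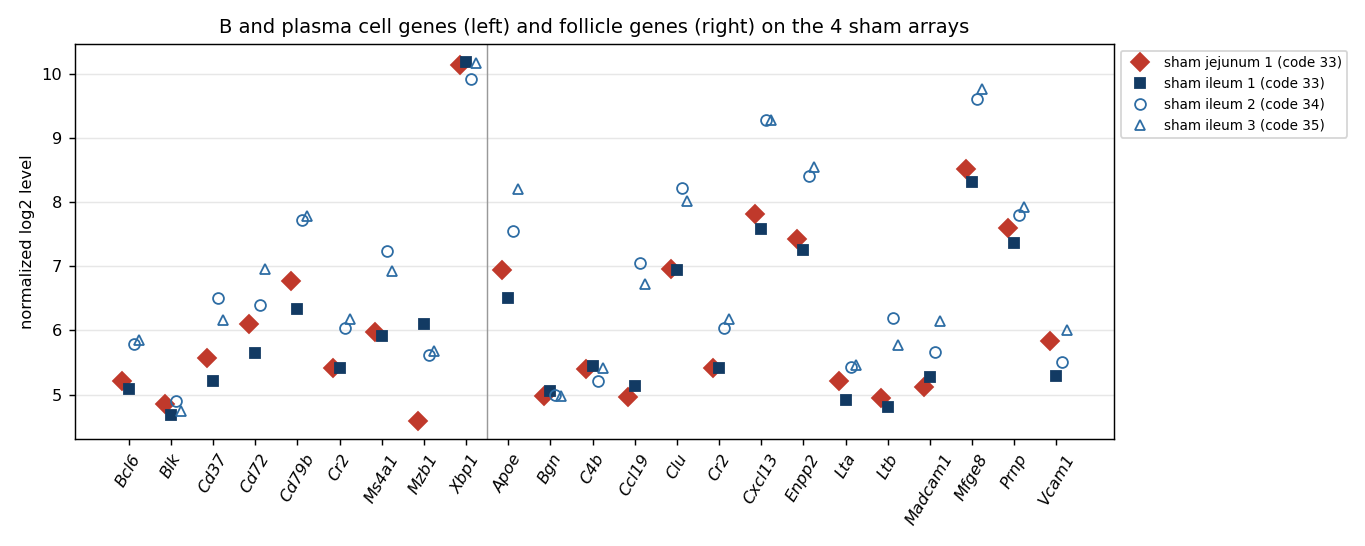
Normalized log2 levels of all measured B and plasma cell genes (left of the line) and follicle genes (right of it) on the sham jejunal array (red diamonds) and the sham ileal arrays of code 33 (dark squares), 34 (open circles) and 35 (open triangles). For Ms4a1, Clu and Ccl19 the 2 arrays of code 33 lie together below the other 2.

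Goblet cell genes gave no call (12 measured, median -0.40), with Spink4, a secreted protease inhibitor, at 8.62 in sham jejunum, against 10.07, 11.28 and 10.35 in sham ileum (adjusted p = 0.0848). The platelet-derived growth factor genes named in the study's title were represented by 2 measured genes. Pdgfa stood at 9.51 in sham jejunum, against 9.31, 8.84 and 8.52 in sham ileum, and its receptor Pdgfra at 5.21, against 4.81, 4.42 and 4.49. Neither passed (adjusted p = 0.707 and 0.391).

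The same contrast in the rats that had lost 75% of the bowel used other animals and shares no array with the sham contrast, although both draw on the same spread per probe in the model. There 849 probes were called (9.29%), 448 higher (4.9%) and 401 lower (4.39%) in SBS jejunum. Of the 57 probes called in sham rats, 56 had the same sign in SBS rats and 52 were called there (91.2% of the sham calls and 6.12% of the SBS calls). The exception in sign was Tlcd4. This agreement is not free of the detection filter. Of the sham arrays, some higher probes were detected on the jejunal one alone, and these were tested only where SBS arrays also detected them. Gata4, Lct and Slit1 are examples. The filter left out 122 of 250 such probes, and 0 of 312 detected on all 3 sham ileal arrays but not in sham jejunum. Of the 849 SBS calls, 725 (85.4%) had the same sign in sham rats, beside 65.5% of all tested probes. The median sham difference of the SBS calls was 0.54 for the higher and -0.46 for the lower ones, against 0.92 and -0.87 in SBS rats themselves, where they had been chosen.

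The difference between the 2 contrasts, sham minus SBS, passed for 18 probes (0.197%), 14 of them named. The sham difference was the more positive for 9 of the 18 (0.0985%) and the more negative for the other 9 (0.0985%). For Fam151a it was 5.80 ± 0.41 (SE; adjusted p = 9.1e-05): the regional difference was 6.11 in sham rats and 0.31 in SBS rats, where the gene stood at 4.86 ± 0.44 in jejunum and 4.55 ± 0.24 in ileum (SD, n = 4 each). For Cubn the regional difference was 3.48 in sham rats and -2.96 in SBS rats, a gap of 6.44 ± 0.85 (SE; adjusted p = 0.00898). Cmahp, the rat relative of a sialic acid hydroxylase gene, and Slc5a12, a sodium-coupled monocarboxylate carrier, had gaps of 5.03 and 4.89 (adjusted p = 0.00898 and 0.0499). For Slc5a12 the sham regions overlapped (10.17 in sham jejunum, against 10.29, 10.12 and 9.76 in sham ileum), and the SBS difference was -4.78. Gcg differed by 0.19 between sham regions and by -3.32 in SBS rats, a gap of 3.51 ± 0.28 (SE; adjusted p = 0.00018).

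In the other direction, Slc11a2 differed by -1.83 between sham regions and by 1.58 between SBS regions, a gap of -3.40 ± 0.44 (SE; adjusted p = 0.00898). Spink4 differed by -1.94 in sham rats and by 1.97 in SBS rats, a gap of -3.91 (adjusted p = 0.00898). Atp2b1, a plasma membrane calcium pump, differed by -0.15 between sham regions, with overlapping levels, and by 2.21 in SBS rats, a gap of -2.36 (adjusted p = 0.00898). For Lct the sham difference was 3.06 and that in SBS rats 0.80, which was not called there (adjusted p = 0.0879), and the gap of 2.26 ± 0.50 (SE) did not pass (adjusted p = 0.162). For Gip the regional difference was 2.96 in sham rats and 2.78 in SBS rats, a gap of 0.19 ± 0.25 (SE). For Gata4 it was 2.18 in sham rats and 2.59 in SBS rats, a gap of -0.40 ± 0.27, and for Slc10a2 -2.13 and -2.38 in the same order, a gap of 0.25 ± 0.32. For Pyy it was -3.14 in sham rats and -3.58 in SBS rats, a gap of 0.43 ± 0.51, and none of these 4 gaps passed the test (adjusted p = 1.00 each).

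**Figure D4:**
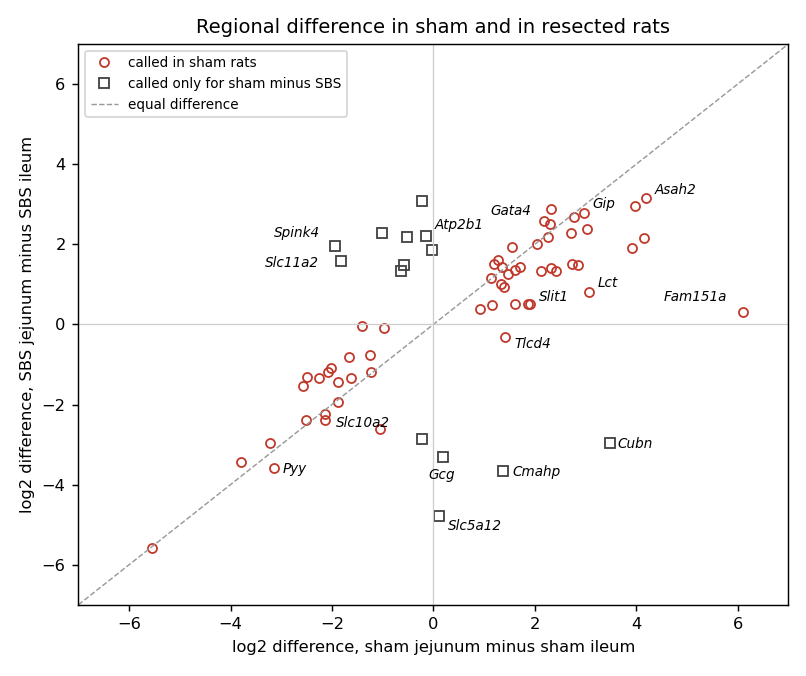
Log2 difference between jejunum and ileum in sham rats (horizontal axis) and in SBS rats (vertical axis) for probes called in sham rats (red circles) and probes called only for the sham minus SBS difference (grey squares); the dashed line marks equal differences. Fam151a and Cubn lie far below the line, and Slc11a2 and Spink4 above it.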

How the data were processed

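The deposited signal table holds the mean bead signal of each probe and array as a linear intensity before any normalization across arrays, beside a detection p-value, per the file headers. The deposited series matrix holds log2 values; set against the signals, it is their quantile normalization without background correction (sorted values equal within 4.996e-06, single values within 0.0101 through ties), with a median of 5.86. Neither the scanner software nor any earlier step is stated in the sources used here.

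Signals were background corrected by normexp with the background taken from the detection p-values (offset 16), then quantile normalized and log2 transformed, all in limma 3.58.1 (R 4.3.3). A filter for detection p under 0.05 on 3 or more of 12 arrays left 9137 of 22517 probes. Symbols came from the array annotation, updated by Entrez identifier for 13747 probes, and 8730 probes carry none; a gene is given by its probe with the highest mean level. A model with 1 mean per group over 12 arrays was fitted with lmFit and eBayes, two-sided, with Benjamini-Hochberg adjustment over 9137 probes; adjusted p in the text are from it. A probe undetected on every array of 1 group gives a bound, "at least N-fold", against the higher of its own level and the lowest detected level there. Such bounds compare group means, so single arrays can differ by less, and without background correction differences can lie below them. SE are those of the model, SD those of samples. Nothing in the labels says that samples of a group came from separate animals other than their codes, and the number of arrays limits the precision.

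Same-code arrays of the SBS groups (codes 36 to 39) deviated together from their group means (correlations 0.66, 0.47, 0.19 and 0.44), so the codes were taken to pair the arrays. In the sham groups only code 33 is shared, so a fixed block for animal leaves the sham contrast as the difference of its 2 arrays. In simulated data, 34%, 89% and 100% of probes changed by log2 1, 2 and 3 were found (100 each among 9137 probes), with 11 false among 234 calls. The simulated noise was independent between arrays, with the same spread in every group and no effect of animal. These rates therefore do not test whether the single sham jejunal array varies like the others.

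The groups, the 47 gene lists and the rule for named genes were chosen with earlier results of these data known. The rule takes, in each direction, the 12 largest called differences of genes outside the ileal range, the bile acid, B12, iron and calcium lists, and in each other list the called members and up to 2 others with the largest moderated statistic; some are left to counts. Lists are described by counts and medians, with no set test.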

Additional observations from a re-analysis of the deposited data

Results flagged for a closer look

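The regional difference in sham rats minus that in SBS rats passed the limma test for 14 named genes. It was above 0, the sham difference being the more positive, for Cubn (6.44), Fam151a (5.80), Cmahp (5.03), Slc5a12 (4.89), Gcg (3.51), Tlcd4 (1.74) and Slit1 (1.40). It was below 0 for Spink4 (-3.91), Slc11a2 (-3.40), Wfdc21 (-3.31), Htatip2 (-2.70), Atp2b1 (-2.36), Fntb (-2.07) and Bok (-1.97). All 14 kept their sign under 20 alternatives, and 4 of them, Fam151a, Gcg, Atp2b1 and Cmahp, kept adjusted p under 0.05 under each. Slc5a12, nearest to the threshold, had adjusted p up to 0.215 and lost its call without any 1 of the sham ileal arrays.

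For Cmahp, SBS jejunum 2 stood apart from the other SBS jejunal arrays, at 5.29 beside 5.95, 5.98 and 6.02, a gap beyond the limit that chance alone passes in about 1 of 20 groups of this size. The limit was applied to both SBS groups of each of the 14 genes, and this array alone passed it, which a search of that width can give by chance. The sham regional differences rest on a single jejunal array, and causes were not tested.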

How the results depend on the processing

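The count of 57 called probes (36 higher, 21 lower) was 158 in the sham arrays alone (110 higher, 48 lower), 154 with animal as a random replicate block (101 higher, 53 lower; estimated correlation 0.349) and 267 with array weights (176 higher, 91 lower). With no filter on dim probes 13 were lower. Leaving out 1 array other than the sham jejunal one gave 27 to 100 calls, 17 to 69 higher and 9 to 32 lower. The count for sham minus SBS, 18, was 36 with the random replicate block, 51 with array weights and 8 to 30 with 1 array left out. The count for the regional difference in SBS rats, 849, was 1519 with the random replicate block. Other settings kept these counts within 1.5 times. Missed calls depended on the setting too: Slc5a4, Slc5a1, Duox2, Rbp2, Slc11a2 and Car2 did not pass in the main fit, and each passed under some of the alternatives. With animal as a fixed replicate block, 24 of 41 called genes kept their call, the rest having adjusted p of 0.0506 to 0.277; the random block ended no call among the 41. Directions turned for genes near 0: Slc40a1 (-0.137 with array weights, -0.181 to 1.02 with 1 array left out), Slc5a12 (-0.128 with the fixed replicate block, -0.041 to 0.227 with 1 array left out), Atp2b1 (-0.274 to 0.011) and Cdh17 (-0.071 to 0.025) with 1 array left out, and Nr0b2 (-0.146 with median scaling, -0.019 with cyclic loess, -0.0092 with the fixed block, -0.014 to 0.024 with 1 array left out). Directions also turned for Ms4a1 and Clu, which were not near 0. They differed by -0.72 and -0.76 in the main fit and by 0.065 and 0.029 with the fixed replicate block. Slc40a1 was also -0.135 without sham ileum 3. The cause was not tested. Leaving out the sham jejunal array was not run, since no contrast remains. Levels near background limit the fold of Gip, Fam151a and other genes undetected on some ileal arrays.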

Other observations

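The interferon-induced genes Mx2 and Ifi44 stood apart from their list of 29 (median 0.01): Mx2 was at 7.44 in sham jejunum, against 5.60, 5.42 and 4.61 in sham ileum, and Ifi44 at 6.06, against 5.19, 4.90 and 5.09 (adjusted p = 0.0625 each). Nfil3, a clock output and cytokine-responsive factor, was at 5.61 in sham jejunum, against 6.75, 7.09 and 6.89 in sham ileum (adjusted p = 0.0934). Slc5a8, a sodium-coupled carrier of short chain acids, was not detected in sham jejunum (4.35) and was at 6.98, 6.05 and 6.02 in sham ileum (adjusted p = 0.46). Of the fatty acid oxidation genes, Decr1 was at 9.06 in sham jejunum, against 7.98, 7.77 and 7.96 in sham ileum (adjusted p = 0.569), and Cpt1a, the gate of mitochondrial uptake, at 7.86, against 8.46, 8.36 and 8.36 (adjusted p = 0.431).

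Probes detected only on the sham jejunal array of the 4 sham arrays numbered 250, of which 122 were left out of the tests because fewer than 3 of the 12 arrays detected them, and 312 probes were detected on all 3 sham ileal arrays and not in sham jejunum.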
